A study of Mus musculus with 12 samples.

Results

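The genes described here are the m6A writers, erasers and YTH readers, 10 of the 34745 genes in the expression table. They were chosen by gene name, with earlier results of these data known, as the core writers Mettl3, Mettl14 and Wtap, the erasers Fto and Alkbh5, and the readers Ythdf1, Ythdf2, Ythdf3, Ythdc1 and Ythdc2. Ythdf3 was selected on its measured level in these same libraries, so its values are a description, and where it falls among the genes called in a comparison nothing is read from that. RNA was sequenced from MLE-12, an immortalised mouse lung epithelial line used as a model of alveolar type II (AT II) cells, in 12 libraries that form 4 groups of 3. In the LPS group the cells received 100 ng/mL lipopolysaccharide, a bacterial endotoxin, in 21% O2, and in the Hyp group they were kept in 85% O2. The LPS + M2-Exo and Hyp + M2-Exo groups also received 10 µg/mL of M2-Exo, exosomes of the alveolar macrophage line MH-S after polarisation with IL-4, and every library carries the time 24 h. These 4 groups hold no untreated cells, so LPS and oxygen were compared with each other and not with a control. The labels number the 3 libraries of a group without naming separate cultures, so p-values measure the spread between these libraries, which may be technical.

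N6-methyladenosine (m6A) is the most abundant internal modification of messenger RNA. A nuclear complex built on the METTL3 and METTL14 pair, with WTAP as its adaptor, places it, the demethylases FTO and ALKBH5 remove it, and proteins with a YTH domain bind it. The cytoplasmic readers YTHDF1, YTHDF2 and YTHDF3 act on the translation and decay of marked transcripts, YTHDC1 acts in the nucleus on splicing and export, and YTHDC2 is an RNA helicase best known from germ cells. In lung epithelium, as in other tissues, this machinery is expressed in most cells, and levels of its mRNAs do not measure the modification itself.

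Total counts ranged from 16021833 to 24074616 a library, and the 6 LPS libraries (16021833 to 19185116) were all shallower than the 6 Hyp libraries (20231632 to 24074616). Each member had at least 467 counts in every library, and all 10 passed the filter on low counts in each comparison. CPM, a gene's count relative to its library's total, are given after scaling by the trimmed mean of M values (TMM), and levels of different genes are compared only as FPKM, which divides by gene length. Summed over 15 macrophage markers, the CPM was 291.6 to 321.5 in LPS, 229 to 263.5 in LPS + M2-Exo, 57.3 to 63.9 in Hyp and 43.6 to 70.9 in Hyp + M2-Exo. Summed over 10 AT II markers it was 420 to 444 where LPS was given and 241 to 265 under hyperoxia, and between 5 and 7 of the 10 averaged at least 1 CPM in a group. Of the AT II markers Abca3 and Nkx2-1 were well detected, while Sftpa1 and Sftpd were at or near 0 in every library, as were Krt18 among epithelial markers and Cd163, Retnla and Chil3 among macrophage markers. Between LPS and Hyp, 10 of the 15 macrophage markers passed the filter and were tested. Of these 7 were higher in LPS, among them Csf1r, Adgre1 and Ptprc, and 2, C1qb and C1qc, were lower (edgeR adjusted p under 0.05). Of the 10 AT II markers 7 were tested, and 5 were higher in LPS and 2, Sftpb and Etv5, were lower. Of all genes, 75.8% passed in this comparison. These marker levels differ between the LPS and Hyp libraries as many members do, and their part in the members' differences was not tested. In bulk RNA, fewer cells of a type and less RNA per cell cannot be told apart.

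Per length, Alkbh5 was the most abundant member at 44.0 to 48.0 FPKM in the 12 libraries. Ythdf1 followed at 24.2 to 33.3 FPKM, then Ythdf3 at 11.01 to 24.59 FPKM and Ythdf2 at 12.4 to 15.7 FPKM. The last 2 were in the other order in LPS replicates 1 and 2 (Ythdf3 over Ythdf2 0.83 and 0.91). This was also so in Hyp + M2-Exo replicates 1 and 3 (0.97 and 0.96). Ythdc1 (5.63 to 9.98 FPKM), Fto (4.71 to 8.06 FPKM) and Wtap (4.47 to 6.91 FPKM) overlapped in level. Ythdc2 (2.84 to 5.58 FPKM), Mettl3 (3.11 to 4.76 FPKM) and Mettl14 (1.56 to 3.36 FPKM) had the lowest values, though in hyperoxia the mean of Ythdc2 (5.03 FPKM in Hyp and 5.33 in Hyp + M2-Exo) was above that of Fto (4.88 and 4.90 FPKM). Mettl3 and Mettl14 were each below Fto and Alkbh5 in every library, though in Hyp + M2-Exo replicate 2 Mettl3 (4.759 FPKM) was all but level with Fto (4.763 FPKM).

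The YTHDF readers lie on 3 chromosomes of GRCm38, Ythdf1 at chr2:180904377-180920949, Ythdf2 at chr4:132184912-132212303 and Ythdf3 at chr3:16183212-16217037. Their transcripts in GENCODE M21 share no 50-base run with each other, and those of Ythdf1 and Ythdf3 share none with any other gene. Of the 50-base runs of Ythdf2, 7.49% also occur in Gm6823 or Gm8401, so reads from those stretches are uncertain. No other gene of the deposited table overlaps any of the 3.

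With LPS alone Ythdf3 was at 109.6, 113.6 and 184.3 CPM, and with LPS + M2-Exo at 178.6, 176.5 and 182.9 CPM. The first 2 LPS libraries were low, and LPS replicate 3 stood at the level of the LPS + M2-Exo libraries, so these groups overlapped. With hyperoxia alone Ythdf3 was at 232.3, 232.2 and 225.7 CPM, and with Hyp + M2-Exo it was at 124.6, 144.6 and 133.9 CPM. The Hyp and Hyp + M2-Exo groups did not overlap. The order of the group means was Hyp (230.0 ± 3.8 CPM, SD, n = 3), LPS + M2-Exo (179.3 ± 3.3), LPS (135.8 ± 42.0) and Hyp + M2-Exo (134.4 ± 10.0). Hyp lay above all other groups and LPS + M2-Exo above Hyp + M2-Exo in every library, while LPS overlapped both LPS + M2-Exo and Hyp + M2-Exo.

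**Figure D1:**
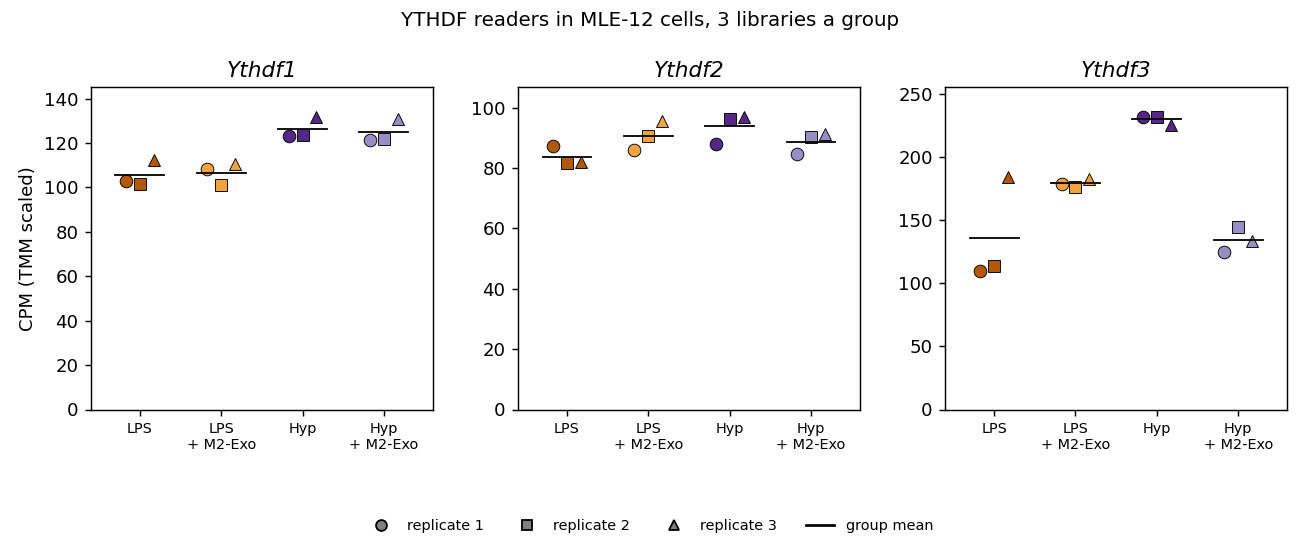
CPM (TMM scaled, linear axis from 0) of Ythdf1, Ythdf2 and Ythdf3 in each of the 12 libraries, with group means as lines. Ythdf3 falls from 225.7 to 232.3 CPM in Hyp to 124.6 to 144.6 CPM in Hyp + M2-Exo, and LPS replicate 3 (184.3 CPM) stands apart from the other LPS libraries, while Ythdf1 and Ythdf2 stay within narrow ranges.

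With M2-Exo, the difference in Ythdf3 was a log2 fold change of −0.77 (standard error 0.05) in hyperoxia, 1.71-fold lower, and 0.42 (0.18) under LPS, 1.34-fold higher. Under LPS the value was 0.70 without LPS replicate 3. Over all tested genes, the log2 CPM of LPS replicate 3 correlated at 0.9953 and 0.9955 with the other LPS libraries and at 0.9943 to 0.9949 with the LPS + M2-Exo libraries.

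The other members of the family differed less with M2-Exo. Ythdf1, which is tied mainly to translation, was at 101.4 to 112.2 CPM in LPS, 101.3 to 110.5 in LPS + M2-Exo, 123.3 to 131.9 in Hyp and 121.6 to 131.0 in Hyp + M2-Exo. Its log2 fold change with M2-Exo was 0.04 ± 0.05 (SE) under LPS (edgeR adjusted p = 0.851) and −0.01 ± 0.05 in hyperoxia (adjusted p = 0.935). Ythdf2, which brings transcripts to the CCR4-NOT deadenylase, was at 81.6 to 87.1 CPM in LPS and 85.95 to 95.46 in LPS + M2-Exo, and at 87.9 to 97.0 in Hyp and 84.5 to 91.1 in Hyp + M2-Exo. Its log2 fold change with M2-Exo was 0.13 ± 0.05 under LPS (adjusted p = 0.395) and −0.08 ± 0.05 in hyperoxia (adjusted p = 0.684), and the groups overlapped in both. Summed FPKM of Ythdf1 and Ythdf2 was 46.9 ± 1.9 in Hyp and 45.8 ± 1.9 in Hyp + M2-Exo (SD, n = 3), whereas the sum with Ythdf3 was 71.3 ± 1.6 and 60.0 ± 2.4.

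Ythdf3 therefore made up a different share of the family's summed FPKM from library to library. Its share was 22.5%, 23.7% and 32.0% with LPS alone, against 31.5%, 31.8% and 31.0% once M2-Exo was added. With hyperoxia alone it was 35.2%, 34.5% and 32.9%, against 23.0%, 25.3% and 22.9% once M2-Exo was added. Means were 26.1 ± 5.2%, 31.4 ± 0.4%, 34.2 ± 1.2% and 23.7 ± 1.4% (SD, n = 3) in that order of groups. The libraries fell into a low range of 22.5% to 25.3% and a high range of 31.0% to 35.2%, with nothing between, and LPS was the group with libraries in both. The FPKM ratio of Ythdf3 to Ythdf2 was 0.83, 0.91 and 1.47 in LPS, 1.26 to 1.37 in LPS + M2-Exo, 1.53 to 1.74 in Hyp and 0.96 to 1.05 in Hyp + M2-Exo. The ratio of Ythdf1 to Ythdf2 stayed between 1.75 and 2.25 in all 12 libraries.

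**Figure D2:**
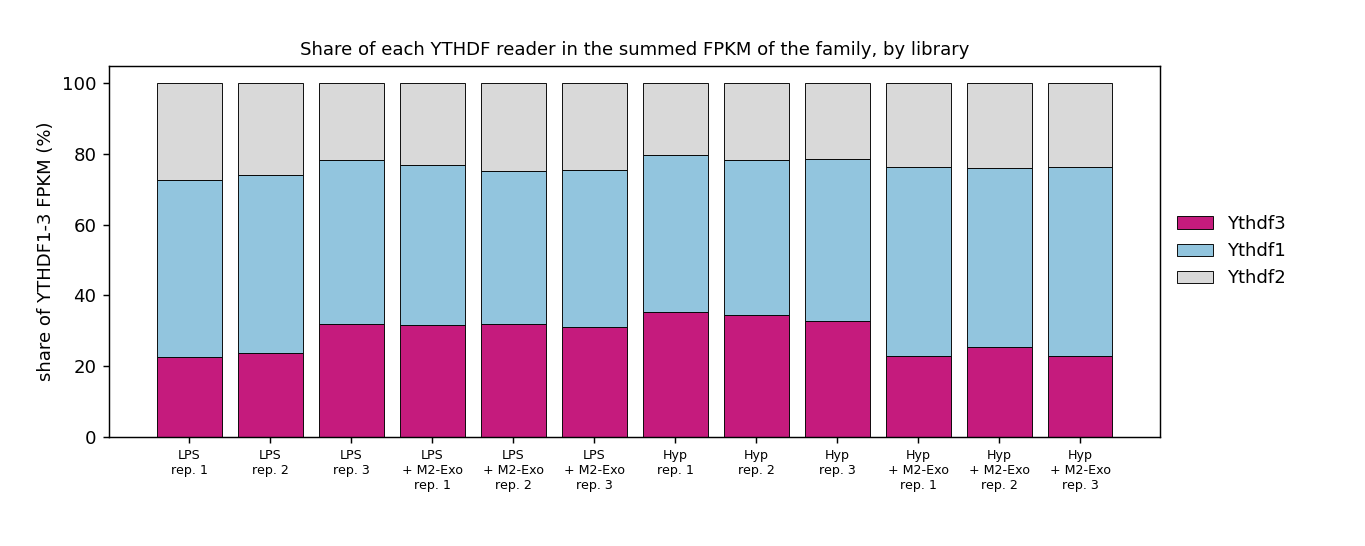
Share (%) of Ythdf3, Ythdf1 and Ythdf2 in the summed FPKM of the 3 YTHDF readers, 1 bar for each of the 12 libraries. Ythdf3 takes 22.5% to 25.3% in 5 libraries (LPS replicates 1 and 2 and the 3 Hyp + M2-Exo libraries) and 31.0% to 35.2% in the other 7.

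Of the 10 members, 0 passed an adjusted p of 0.05 (edgeR quasi-likelihood test, Benjamini-Hochberg over all genes) with M2-Exo under LPS, where 25 of 13353 genes did (0.187%). By an unadjusted p under 0.05 there were 2, Ythdf2 and Ythdf3, beside 11.1% of all genes, and DESeq2 and limma also called 0. In hyperoxia 1 member passed, Ythdf3 itself, where 14 of 13815 genes did (0.101%), and by an unadjusted p there were 2, Ythdf3 and Mettl14, beside 8.48% of all genes. Since Ythdf3 was selected on its level in these libraries, nothing is read from a count that holds it. Libraries with and without M2-Exo did not overlap in 0 members under LPS (16.6% of all genes) and in 3 in hyperoxia, Ythdf3, Ythdc2 and Mettl14 (15.6% of all genes). The test of whether the M2-Exo difference itself differed between LPS and hyperoxia called 0 members and 5 of 14187 genes (0.0352%). By an unadjusted p under 0.05 there were 4, Ythdf2, Ythdf3, Ythdc2 and Mettl14, beside 9.78% of all genes. Limma called 0 members and DESeq2 called 1 among 70 genes, the selected Ythdf3, from which again nothing is read. The 2 differences of Ythdf3 were 1.19 apart on the log2 scale. The median log2 fold change of the 10 members was 0.04 under LPS and 0.01 in hyperoxia, beside 0.00 over all tested genes in both.

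**Figure D3:**
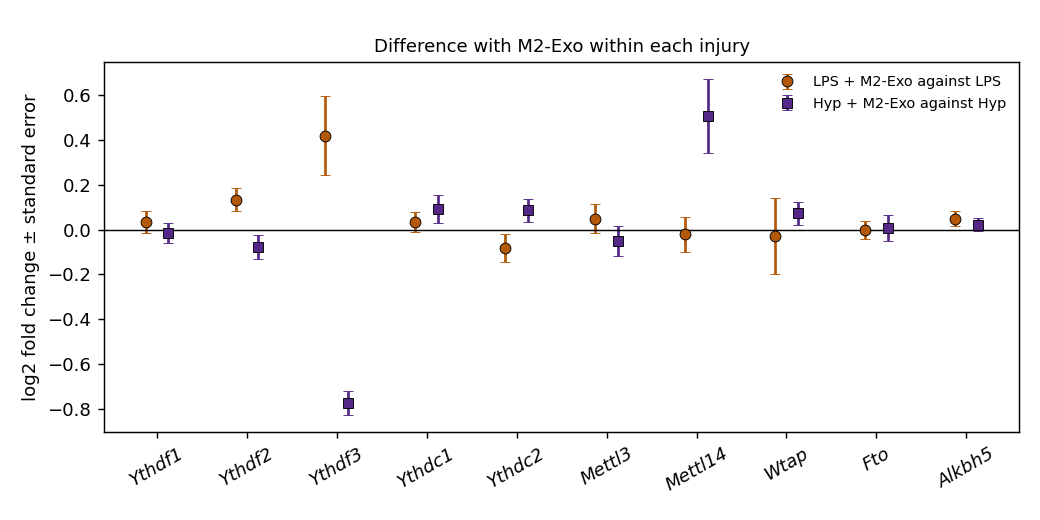
Log2 fold change with M2-Exo (y axis, ± 1 standard error) of the 10 members, circles under LPS and squares in hyperoxia, 3 libraries a group. Ythdf3 is at 0.42 under LPS and −0.77 in hyperoxia, Mettl14 is at 0.51 in hyperoxia with a wide error, and the other members lie between −0.08 and 0.13.

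The core writers are Mettl3 (chr14:52294841-52305128), the catalytic subunit, Mettl14 (chr3:123368297-123386108), its RNA-binding partner, and Wtap (chr17:12966796-12994169). With LPS alone Mettl14 was at 46.9, 42.2 and 41.1 CPM, and M2-Exo brought 38.6, 42.2 and 45.9 CPM. With hyperoxia alone it was at 22.6, 20.6 and 32.9 CPM, and with M2-Exo added at 33.2, 38.9 and 36.0 CPM. Hyp replicates 1 and 2 were the lowest of all 12, and Hyp replicate 3 came close to the lowest Hyp + M2-Exo library. Mettl14 was 1.42-fold higher in Hyp + M2-Exo than in Hyp, a log2 fold change of 0.51 ± 0.16 (SE) that did not pass the test (edgeR adjusted p = 0.544).

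Mettl3 was at 34.2 to 38.9 CPM over the 6 libraries with LPS, below the 42.9 to 48.7 CPM of the 6 with hyperoxia. Its log2 fold change with M2-Exo was 0.05 ± 0.07 (SE) under LPS (edgeR adjusted p = 0.847) and −0.05 ± 0.07 in hyperoxia (adjusted p = 0.839). The FPKM ratio of Mettl3 to Mettl14 was 1.03 to 1.24 over the 6 libraries with LPS and 1.54 to 1.67 with Hyp + M2-Exo. In Hyp it was 2.75 and 2.96 in the 2 libraries with low Mettl14 and 1.73 in replicate 3. By the positions in the deposited table, Mettl3 overlaps Tox4 (mean count 3830) on the opposite strand by 1724 bases. Of the 50-base runs of Mettl3, 18.4% occur in other genes. Part of its count could therefore come from these genes or from Tox4, or be lost.

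With LPS alone Wtap was at 52.5, 63.9 and 69.6 CPM, and with M2-Exo added at 67.2, 68.0 and 44.9 CPM. LPS + M2-Exo replicate 3 was the lowest of all 12 and LPS replicate 1 the next, and the groups overlapped. The Hyp (54.9 to 59.3 CPM) and Hyp + M2-Exo (58.1 to 60.7 CPM) libraries were close together. Its log2 fold change with M2-Exo was −0.03 ± 0.17 (SE) under LPS (edgeR adjusted p = 0.975) and 0.07 ± 0.05 in hyperoxia (adjusted p = 0.684). Of the 50-base runs of Wtap, 6.36% occur in other genes.

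**Figure D4:**
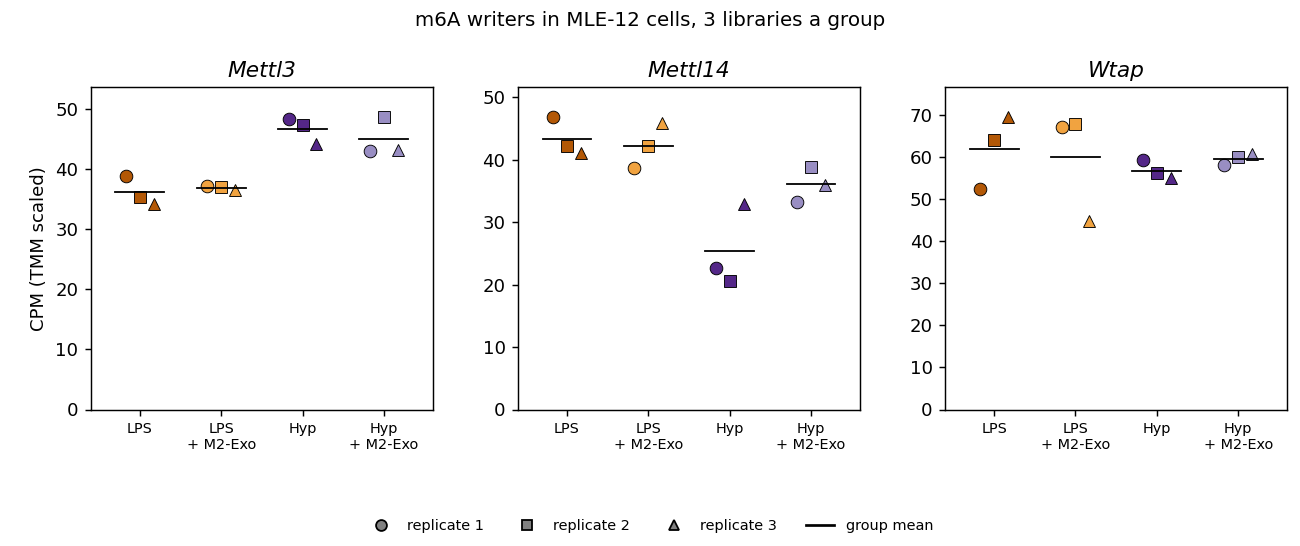
CPM (TMM scaled, linear axis from 0) of Mettl3, Mettl14 and Wtap in each of the 12 libraries, with group means as lines. Mettl14 is low in Hyp replicates 1 and 2 (22.6 and 20.6 CPM) and Wtap in LPS + M2-Exo replicate 3 (44.9 CPM), while Mettl3 is higher in all Hyp libraries than in all LPS libraries.

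Ythdf3, Mettl14 and Wtap were also the members with the widest spread inside a group. Highest over lowest library was 1.68-fold for Ythdf3 in LPS, 1.60-fold for Mettl14 in Hyp and 1.51-fold for Wtap in LPS + M2-Exo. These were above 95.1%, 93.9% and 92.5% of the 9748 genes compared, each taken at its widest group. The median of these widest spreads was 1.16-fold. Since Ythdf3 was selected on its level in these libraries, its place among them is a description. For the other 7 members the widest spread in any group was 1.18-fold or less. A different library set each of the 3 spreads (LPS replicate 3, Hyp replicate 3 and LPS + M2-Exo replicate 3).

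The erasers were close to level with and without M2-Exo. Fto (chr8:91313525-91668439), the demethylase also known from body weight genetics, was at 125.3, 116.2 and 118.7 CPM in LPS and 118.6, 116.8 and 120.2 CPM in LPS + M2-Exo. It was at 71.1, 69.4 and 75.1 CPM in Hyp and 77.1, 70.0 and 69.3 CPM in Hyp + M2-Exo. All 6 LPS libraries were above all 6 Hyp libraries, and the groups with and without M2-Exo overlapped in both pairs. The log2 fold change of Fto with M2-Exo was 0.00 ± 0.04 (SE) under LPS (edgeR adjusted p = 0.998) and 0.01 ± 0.06 in hyperoxia (adjusted p = 0.973). Alkbh5 (chr11:60536381-60558512), the second demethylase, was at 279.0 to 304.5 CPM over the 6 libraries with LPS, above the 262.2 to 272.7 CPM of the 6 with hyperoxia. Its log2 fold change with M2-Exo was 0.05 ± 0.03 (SE) under LPS (edgeR adjusted p = 0.661) and 0.02 ± 0.03 in hyperoxia (adjusted p = 0.837).

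The YTHDC readers were both higher in hyperoxia. Ythdc1 (chr5:86804221-86836659) was at 112.4, 118.4 and 110.2 CPM in LPS, 113.7, 117.2 and 114.1 in LPS + M2-Exo, 162.8, 162.2 and 151.2 in Hyp and 153.8, 171.3 and 181.9 in Hyp + M2-Exo. Ythdc2 (chr18:44827746-44889724) was at 35.5, 37.7 and 37.9 CPM in LPS, 32.2, 35.2 and 36.3 in LPS + M2-Exo, 53.7, 54.1 and 55.1 in Hyp and 60.4, 56.9 and 55.4 in Hyp + M2-Exo. Every Hyp library was above every LPS library for both genes. With M2-Exo in hyperoxia the log2 fold change was 0.09 ± 0.06 (SE) for Ythdc1 (edgeR adjusted p = 0.683) and 0.09 ± 0.05 for Ythdc2 (adjusted p = 0.633), whose groups did not overlap. Under LPS it was 0.03 ± 0.04 for Ythdc1 (adjusted p = 0.832) and −0.08 ± 0.06 for Ythdc2 (adjusted p = 0.694). A predicted gene, Gm43055 (mean count 35.5), overlaps Ythdc1 on its own strand by 12886 bases. Of the 50-base runs of Ythdc1, 5.87% occur in other genes, so part of its count is uncertain, as is that of Gm43055.

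Between the injuries, LPS and hyperoxia, most of the members differed, as most genes did. Without M2-Exo, 9 of 10 members passed the test, 8 without counting Ythdf3, and so did 75.8% of all 13805 genes. Of the 9, Fto, Mettl14 and Alkbh5 were higher in LPS, and Ythdf1, Ythdf2, Ythdf3, Ythdc1, Ythdc2 and Mettl3 were higher in Hyp. With M2-Exo in both groups, 8 of 10 passed, 7 without counting Ythdf3, beside 73.7% of 13660 genes, Fto, Mettl14, Alkbh5 and Ythdf3 higher with LPS and Ythdf1, Ythdc1, Ythdc2 and Mettl3 higher with hyperoxia. Libraries did not overlap in 9 members without M2-Exo (78.8% of all genes) and in 7 with it (76.8% of all genes). All these shares of the members are near the background, and Ythdf3 was in each count as a gene selected on its level.

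Fto was 1.67-fold higher in LPS than in Hyp (log2 0.74 ± 0.05 SE, edgeR adjusted p = 2.43e-06) and 1.66-fold with M2-Exo (0.73 ± 0.05, 5.42e-06). Ythdc2 was 1.46-fold lower in LPS (−0.55 ± 0.05, edgeR adjusted p = 1.84e-05) and 1.65-fold lower with M2-Exo (−0.72 ± 0.07, 2.06e-05). Ythdc1 was 1.39-fold lower in LPS (−0.48 ± 0.04, edgeR adjusted p = 2.15e-05) and 1.45-fold lower with M2-Exo (−0.54 ± 0.06, 8.97e-05). Ythdc1 and Ythdc2 were thus lower and Fto higher with LPS in both pairs. Genes that passed went each way about as often, 5216 higher and 5249 lower in LPS against Hyp.

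Mettl3 was 1.29-fold lower in LPS (−0.36 ± 0.07, edgeR adjusted p = 0.00117) and 1.2-fold lower with M2-Exo (−0.27 ± 0.07, 0.00698). Mettl14, its partner, went the other way, 1.71-fold higher in LPS (0.78 ± 0.16, edgeR adjusted p = 0.00279) and 1.18-fold with M2-Exo (0.24 ± 0.08, 0.0281). The first was 0.50 by limma on log2(FPKM + 1) (limma adjusted p = 0.00639), where the pseudocount shrinks low genes, and 0.69 with a pseudocount of 0.1 (0.00743). The second was not called when libraries were scaled by total count alone (log2 0.15, edgeR adjusted p = 0.133), nor with all 12 libraries in 1 fit (0.24, 0.141), nor by limma in its 3 settings (0.11 to 0.15, limma adjusted p = 0.184 to 0.275), nor without LPS + M2-Exo replicate 2 or 3 or Hyp + M2-Exo replicate 1 or 3 (log2 0.18 to 0.24, edgeR adjusted p = 0.0661 to 0.0927). It was called in 6 of 15 alternatives. Wtap passed in neither pair (log2 0.13 ± 0.10, edgeR adjusted p = 0.246, and 0.03 ± 0.15, 0.884). It passed in the first pair without LPS replicate 1 (log2 0.24, edgeR adjusted p = 0.00968) and in the second without LPS + M2-Exo replicate 3 (0.21, 0.0142).

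Ythdf1 was 1.2-fold lower in LPS (−0.26 ± 0.05, edgeR adjusted p = 0.00174) and 1.16-fold lower with M2-Exo (−0.21 ± 0.05, 0.00421). Ythdf2 was 1.12-fold lower in LPS (−0.16 ± 0.05, edgeR adjusted p = 0.0207) and near equal with M2-Exo (0.05 ± 0.05, 0.458). The first of these was not called without LPS replicate 2 or 3 or without Hyp replicate 2 or 3 (log2 −0.15 to −0.14, edgeR adjusted p = 0.0589 to 0.076). It was larger with library size alone (−0.25, edgeR adjusted p = 0.00293) and by limma in its 3 settings (−0.25 to −0.23, limma adjusted p = 0.00392 to 0.00805). Ythdf3 was 1.69-fold lower in LPS than in Hyp (log2 −0.76, standard error 0.18) but 1.35-fold higher in LPS + M2-Exo than in Hyp + M2-Exo (0.43, 0.05). Alkbh5 was 1.08-fold higher in LPS (0.11 ± 0.03, edgeR adjusted p = 0.00824) and 1.09-fold with M2-Exo (0.13 ± 0.04, 0.012). With library size alone these fell to 0.02 (edgeR adjusted p = 0.569) and 0.04 (0.374), and by limma on FPKM, in its 3 settings, Alkbh5 passed in neither pair (log2 0.02, limma adjusted p = 0.521 to 0.557, and 0.04, 0.384 to 0.393). The second was also not called without Hyp + M2-Exo replicate 2 (0.11, edgeR adjusted p = 0.0566).

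**Figure D5:**
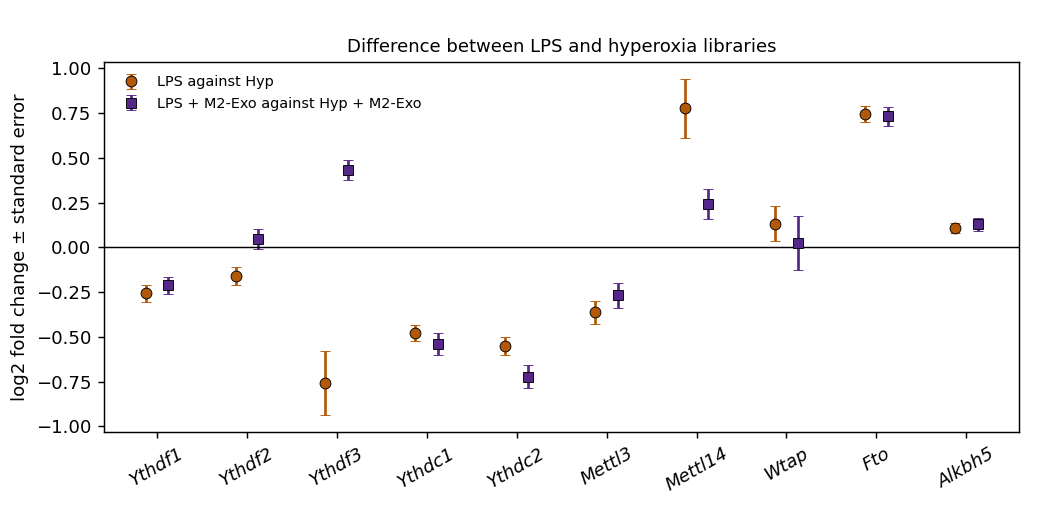
Log2 fold change of LPS against Hyp libraries (y axis, ± 1 standard error) for the 10 members, circles without and squares with M2-Exo, 3 libraries a group. Values above 0 are higher with LPS. Fto is at 0.74 and 0.73, Ythdc1 and Ythdc2 are at −0.48 to −0.72, and Ythdf3 changes sign from −0.76 to 0.43.

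The RefSeq table used here held promoter windows for 7 of the 10 members. Windows of 4 that differed between the injuries in both pairs are shown, the 250 bases before the start of Fto, which was higher in LPS, and of Ythdc1, Mettl3 and Ythdf1, which were higher in hyperoxia. They come from GRCm38.p6 at chr8:91313275-91313524 (plus strand), chr5:86804016-86804265 (plus strand), chr14:52305125-52305374 (minus strand) and chr2:180920937-180921186 (minus strand). Each is written 5′ to 3′ on the strand of its gene. Capitals mark matches, on either strand, to the letters GGGCGG of the GC box, the letters CCAAT of the box of that name, the letters TATAAA of the TATA box, the letters CCGGAA of the ETS core or the letters CACGTG of the E-box, and no match overlaps another.
Fto: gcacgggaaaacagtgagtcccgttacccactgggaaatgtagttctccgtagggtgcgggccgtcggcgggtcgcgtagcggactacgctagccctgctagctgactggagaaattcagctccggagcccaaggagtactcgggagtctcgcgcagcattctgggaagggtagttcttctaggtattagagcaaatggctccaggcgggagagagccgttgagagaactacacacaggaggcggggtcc
Ythdc1: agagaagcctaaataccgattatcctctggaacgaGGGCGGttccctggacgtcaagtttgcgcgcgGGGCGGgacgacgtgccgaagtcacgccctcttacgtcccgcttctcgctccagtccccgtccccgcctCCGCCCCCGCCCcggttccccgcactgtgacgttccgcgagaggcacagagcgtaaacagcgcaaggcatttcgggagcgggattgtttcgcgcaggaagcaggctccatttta
Mettl3: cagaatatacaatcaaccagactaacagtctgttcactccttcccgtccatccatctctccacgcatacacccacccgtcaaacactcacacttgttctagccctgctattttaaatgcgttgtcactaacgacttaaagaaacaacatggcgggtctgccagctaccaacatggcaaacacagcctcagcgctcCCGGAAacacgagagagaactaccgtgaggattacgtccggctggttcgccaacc
Ythdf1: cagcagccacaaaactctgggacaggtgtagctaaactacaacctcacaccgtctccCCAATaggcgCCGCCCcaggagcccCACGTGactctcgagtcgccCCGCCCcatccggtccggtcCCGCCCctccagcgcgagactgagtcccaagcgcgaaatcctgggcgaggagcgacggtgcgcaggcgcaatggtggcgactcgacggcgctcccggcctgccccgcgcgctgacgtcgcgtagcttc

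The window of Fto held none of these motifs, that of Ythdc1 held 4 GC boxes and that of Mettl3 held 1 ETS core. The window of Ythdf1 held 3 GC boxes, 1 CCAAT box and 1 E-box. That of Alkbh5, which was also higher in LPS and is not printed, held 2 GC boxes and 1 CCAAT box. Of all 32851 windows of this length, 32.7% held a GC box, 33.8% a CCAAT box, 12.4% a TATA box, 12.0% an ETS core and 6.02% an E-box. GC content was 59.2% for Fto, 63.2% for Ythdc1, 50.4% for Mettl3 and 68.4% for Ythdf1, beside a median of 52.4% over all windows. A match is a description of these letters and not of a bound site.

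A further 40 genes of the m6A pathway were listed by role, and all 40 were tested in each comparison. With M2-Exo, 0 of 40 passed under LPS (5 by an unadjusted p under 0.05, beside 11.1% of all genes) and 0 of 40 in hyperoxia (5 by an unadjusted p, beside 8.48% of all genes), and DESeq2 and limma called 0 as well. The smallest p-values under LPS belonged to Elavl1, an AU-rich element binding protein (log2 0.12 ± 0.03 SE, edgeR adjusted p = 0.267), and Ahcy, which hydrolyses S-adenosylhomocysteine (−0.31 ± 0.12, 0.378). In hyperoxia they belonged to Prrc2a, a reader without a YTH domain (−0.12 ± 0.03, edgeR adjusted p = 0.541), and Pcif1, which methylates the adenosine next to the cap (−0.20 ± 0.06, 0.541). For the difference between the M2-Exo effects 0 of 40 passed (3 by an unadjusted p, beside 9.78% of all genes, 0 by DESeq2 and limma), with the smallest p for Rida (0.28 ± 0.12, edgeR adjusted p = 0.459) and Prrc2a (−0.10 ± 0.04, 0.495).

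Between LPS and Hyp, 31 of these 40 passed, 16 higher in LPS and 15 higher in Hyp, and with M2-Exo 31 passed, 15 and 16. These shares are again close to those of all genes (75.8% and 73.7%). Of the 5 other subunits of the writer complex, 4 were higher in Hyp (Virma, Rbm15, Zc3h13 and Cbll1) and 0 higher in LPS, and with M2-Exo 4 were higher in hyperoxia and 1, Rbm15b, higher with LPS. Cbll1, the E3 ligase homologue HAKAI, had a log2 fold change of −0.73 ± 0.06 (SE, edgeR adjusted p = 8.88e-06) and −0.84 ± 0.07 with M2-Exo (9.65e-06). The 4 subunits higher in Hyp had the direction of Mettl3, and Rbm15b, where called, that of Mettl14.

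Of the 5 genes for other N6-adenine methyltransferases and their cofactor, 3 were higher in Hyp and 1 higher in LPS in both pairs. Of all genes, 75.8% and 73.7% passed in these pairs. Mettl16, which methylates U6 snRNA and the Mat2a transcript, averaged 61.2 ± 10.9 CPM in LPS, 68.5 ± 1.6 in LPS + M2-Exo, 138.4 ± 1.9 in Hyp and 150.2 ± 6.5 in Hyp + M2-Exo (SD, n = 3). Its log2 fold change was −1.17 ± 0.12 (SE, edgeR adjusted p = 3.21e-05) and −1.12 ± 0.05 with M2-Exo (4.46e-07). Pcif1 averaged 82.6 ± 6.3 CPM in LPS, 79.3 ± 5.5 in LPS + M2-Exo, 38.4 ± 0.9 in Hyp and 33.3 ± 1.5 in Hyp + M2-Exo (SD, n = 3). It was 2.16-fold higher in LPS (1.11 ± 0.06 SE, edgeR adjusted p = 1.39e-06) and 2.41-fold with M2-Exo (1.27 ± 0.07, 1.24e-06).

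Of 4 genes for S-adenosylmethionine supply, 3 passed in both pairs, a share like that of all genes (75.8% and 73.7%), and these 3 were higher in LPS. Mat2a, which makes S-adenosylmethionine, averaged 242.4 ± 20.0 CPM in LPS and 122.9 ± 3.2 in Hyp (SD, n = 3), a log2 fold change of 0.98 ± 0.06 (SE, edgeR adjusted p = 1.96e-06). Mat2a, Mat2b and Ahcy passed in both pairs and Ahcyl1 in neither. Mettl16 was lower and Mat2a higher in LPS than in Hyp, where 5216 of all genes passed as higher and 5249 as lower. A link between them was not tested.

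Among 11 readers outside the YTH family, 5 were higher in LPS and 4 in Hyp, and with M2-Exo 5 and 5. Of all genes, 75.8% passed without M2-Exo and 73.7% with it. Igf2bp1, an oncofetal RNA-binding protein, averaged 35.6 ± 0.4 CPM in LPS and 74.2 ± 3.9 in Hyp (SD, n = 3), a log2 fold change of −1.06 ± 0.05 (SE, edgeR adjusted p = 6.72e-07). With M2-Exo it was −1.07 ± 0.05 (SE, edgeR adjusted p = 9.53e-07). Of 12 genes for the CCR4-NOT deadenylase and other decay partners of YTHDF2, 6 were higher in LPS and 4 in Hyp. With M2-Exo these were 4 and 4, again beside 75.8% and 73.7% of all genes. The deadenylase Cnot6 averaged 400.2 ± 8.5 CPM in LPS and 238.9 ± 3.6 in Hyp (SD, n = 3), a log2 fold change of 0.75 ± 0.03 (SE, edgeR adjusted p = 2.3e-07). The subunit Cnot9 averaged 130.3 ± 1.0 CPM in LPS and 230.6 ± 6.4 in Hyp (SD, n = 3), a log2 fold change of −0.82 ± 0.03 (SE, edgeR adjusted p = 2.06e-07), and −0.79 ± 0.04 with M2-Exo (9.85e-07). Of 3 nuclear partners of YTHDC1, 1 was higher in LPS in both pairs, beside 75.8% and 73.7% of all genes passing in either direction.

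Across the 12 libraries, the 5 genes most like Ythdf3 by Pearson correlation of log2 CPM, out of 9750 genes with a mean of at least 10 CPM, were Rfc5 (0.854), Phlda1 (0.815), H2-M3 (0.799), Taf10 (0.774) and Foxf2 (0.766). These libraries share their group and their depth differences, and the values are a description. Rfc5, a subunit of the clamp loader of DNA replication, was at 147.9, 157.8 and 164.2 CPM in LPS, 161.2, 157.4 and 162.8 in LPS + M2-Exo, 177.4, 176.1 and 169.9 in Hyp and 158.4, 165.0 and 162.7 in Hyp + M2-Exo. It was highest in Hyp and lowest in LPS replicate 1, but its whole range was only 0.25 on the log2 scale. The whole ranges of the other 4 were 0.28 to 0.62. After the group means were removed, the correlation with Ythdf3 was 0.768 for Rfc5, 0.77 for H2-M3, 0.791 for Foxf2, 0.433 for Taf10 and 0.313 for Phlda1. Among the members, Ythdf2 (0.523) and Ythdf1 (0.387) had the highest correlation with Ythdf3 and Mettl14 (−0.601) the lowest. After the group means were removed these were −0.151 for Ythdf2, 0.557 for Ythdf1 and −0.155 for Mettl14. Inside groups, Ythdf3 spanned 0.75 on the log2 scale in LPS, where replicate 3 stood apart, and 0.04 to 0.21 elsewhere. All values given here with group means removed, for the 5 genes and for the members, therefore rest largely on LPS replicate 3.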

How the data were processed

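RNA was read as poly(A) libraries of 12 MLE-12 samples. Per the labels' processing notes the authors used GRCm38, HISAT2 2.0.4, StringTie 1.3.0 and edgeR, and the counting program, its use of strand and the annotation are not given in the sources used here. They deposited 1 table with counts per gene, not normalized, and FPKM, which divide a count by gene length and library total, so library makeup still moves them. The deposited counts were tested with edgeR 4.0.16 in R 4.3.3 (filterByExpr, TMM, quasi-likelihood test, Benjamini-Hochberg adjustment over all genes, adjusted p under 0.05), with the 6 libraries of each comparison, or all 12 for the difference between the M2-Exo effects. The standard error given with an edgeR value is its absolute log2 fold change divided by the square root of the test's F statistic. The deposited FPKM served for levels per length and for limma 3.58.1, on log2(FPKM + 1) of genes with a mean of at least 1. DESeq2 1.42.0, other scalings, no filter, all 12 libraries, the replicate number as a block, and leaving out each library were the alternatives. The fit was tested on simulated data drawn with the same spread for all genes. The planted changes were larger than any member's difference in the fits with 6 libraries, so smaller differences were not covered. The members and lists were chosen with earlier results of these data known. Genes named are the 10 members, of the listed genes up to 4 with the smallest p among those called in a comparison (2 where none was), and the 5 genes most like Ythdf3. Mat2a and Cbll1 and others named beside these were picked after their values were seen. Gene positions given in the text come from GENCODE M21 and promoters from RefSeq (GRCm38.p6). Overlaps between genes were taken from the positions in the deposited table, which differ from GENCODE M21 for some members, among them Mettl3 and Wtap.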

Additional observations from a re-analysis of the deposited data

How the results depend on the processing

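Under the other scalings, filters and tools, 9 members at most and 8 at least were called between LPS and Hyp. With library size alone it was 8, beside 10566 of 13805 genes. Without LPS replicate 1 there were 10, beside 10301 of 14181 genes. With M2-Exo in both groups it was 6 to 8. Library size alone gave 6, beside 10158 of 13660 genes, and DESeq2 8, beside 9498 of 13660. Ythdf3 was in each of these counts. With M2-Exo under LPS, 1 member was called without LPS replicate 3 (22 of 13518 genes in all, range 0 to 1 member over replicates left out). In hyperoxia 0 were called with all 12 libraries in 1 fit (2 of 14187 genes in all). The difference between the M2-Exo effects called 1 member with no filter (13 genes in all), with DESeq2 (70) and without LPS replicate 3 (9, range 0 to 1 member). Each time it was Ythdf3, selected on its level in these libraries, so nothing is read from these calls. The cause was not tested.

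The Ythdf3 log2 fold change between LPS + M2-Exo and Hyp + M2-Exo was 0.34 with library size alone and 0.32, 0.34 and 0.32 with limma on log2(FPKM + 1), log2(FPKM + 0.1) and without its filter. Read as counts in place of FPKM, the share of Ythdf3 in its family was 41.2% with LPS, 47.6% with M2-Exo added, 51.1% with hyperoxia and 38.6% with M2-Exo added, in the same order of groups.

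Signs changed only for values that were not called. For Ythdf2 between the M2-Exo groups it became −0.04 with library size alone and with limma (−0.041, −0.044 and −0.041), and for Wtap −0.0649 and −0.0744, −0.0889 and −0.0744. The replicate block moved Fto under LPS to 0.0002. Leaving out 1 replicate at a time gave these ranges, which cross 0. With M2-Exo under LPS they were −0.0742 to 0.0405 for Mettl14, −0.0259 to 0.0322 for Fto and −0.1349 to 0.1522 for Wtap, and in hyperoxia −0.0413 to 0.0419 for Fto and −0.053 to 0.0194 for Ythdf1. Between LPS + M2-Exo and Hyp + M2-Exo the range was −0.0753 to 0.2088 for Wtap. For the difference between the M2-Exo effects it was −0.039 to 0.0467 for Fto, −0.0723 to 0.2134 for Wtap and −0.0366 to 0.0068 for Alkbh5.

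Same-numbered libraries did not deviate together (correlations −0.018 to 0.05). The replicate block gave 0, 1, 9 and 8 members called in the 4 comparisons and 0 for the difference, as without it. Over all genes the block gave 6, 8, 10259 and 9864 calls and 3 for the difference. Without it these were 25, 14, 10465, 10062 and 5. Calls on differences near 1.1-fold rest on 3 libraries a group and on the scaling between LPS and Hyp libraries, whose depths do not overlap.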
